A study of Mus musculus with 8 samples.

Results

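The late response of RAW 264.7 cells to Bacillus clausii MTCC-8326 (B. clausii from here on) was set against the early response, with the arrays of 4 h and 6 h on the late side and those of 1 h and 2 h on the early side. These 4 arrays were chosen by bacterium and time from the 8 of the study, and the other 4, made with Lactobacillus acidophilus, enter no comparison. RAW 264.7 is a macrophage-like line made from a tumour that Abelson murine leukaemia virus raised in a BALB/c mouse. On each array, RNA of cells given 100 bacteria per cell (Cy5) was hybridised against RNA of untreated cells of the same time (Cy3), and RNA of 3 cultures was mixed in equal amounts before labelling. Each time therefore has 1 array, no array exchanged the dyes, and the labels do not state whether the bacteria were alive. Every value below, unless a channel is named, is a log2 ratio of treated over untreated cells after loess normalization within the array, so that 1 is a doubling and 0 is the typical gene of that brightness.

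Macrophages meet bacteria through Toll-like and other pattern receptors, which activate NF-kappa B and MAP kinases. Chemokine and immediate early genes are induced first, and their transcripts are short-lived and are held down again by feedback inhibitors. Secretory load and nutrient stress engage the unfolded protein response of the endoplasmic reticulum (ER) and the ATF4 branch of the integrated stress response, and activated macrophages also switch on hypoxia-inducible and glycolytic genes. The comparison addresses the kinetics that the title of the series names: which of these genes stood at other levels in the later hours.

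The share of the 41174 probes with a signal well above background was 39.7% to 46.4% in treated and 42.3% to 46.7% in untreated cells, and no spot was saturated. The 1 h and 6 h arrays had the lower shares, the wider replicate spots (median SD of 0.123 and 0.13 log2, against 0.0966 and 0.097 at 2 and 4 h) and the wider ratios over genes (SD of 0.304 and 0.315, against 0.241 and 0.249). All 4 arrays lie on 1 slide, and the position on the slide cannot be told apart from the time. Of 10 macrophage markers 9 were well above background in both channels on all 4 arrays, whereas none of the B cell, neutrophil, fibroblast, epithelial and erythroid markers and 2 of the 5 T cell markers were. The spike-in controls had a mean log2 ratio of -0.63, -0.471, -0.594 and -0.658 at 1, 2, 4 and 6 h after loess, with early and late values that overlapped (exact permutation test, two-sided, p = 0.667, where 2 arrays against 2 cannot go below 0.333). Without loess the means were -1.83, -1.24, -1.18 and -1.37, the lowest being that of 1 h.

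Of the 13215 genes tested, 4 (0.0303%) passed the test of late against early (limma, Benjamini-Hochberg adjusted p under 0.05). The chemokine gene Ccl4 and the stress transcription factor gene Ddit3 fell, and Mllt11 and Phf13 rose, 2 genes (0.0151%) each way. In this fit a gene's own spread is the disagreement of 1 h with 2 h and of 4 h with 6 h, on 2 residual degrees of freedom. Changes within a phase and scatter between pools cannot be told apart in it. That spread is moderated towards a prior over all genes, which has 8.19 degrees of freedom. The calls rest on few arrays: without the 1 h array 0 genes passed in limma (539 at an unadjusted p under 0.05), without the 2 h array 26, without the 6 h array 96 and without the 4 h array 1405, in fits that assume that the lone array of a side varies like the other side. With the scanner software's processed signals, or with the local background as deposited, 0 genes passed as well. At an unadjusted p under 0.05 in limma the counts were 1564 and 1423. Ccl4, Ddit3, Mllt11 and Phf13 kept their directions in all 19 alternatives run. Alternatives that changed only the spread or the cutoff could not reverse a direction. Nor could those without single arrays, since both late ratios of these genes lay on the same side of both early ratios. In the main setting 979 genes (7.41%) were higher and 905 (6.85%) lower late at an unadjusted p under 0.05, and at an adjusted p under 0.1 the numbers were 23 (0.174%) and 17 (0.129%).

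Ccl4, which encodes the macrophage inflammatory protein MIP-1 beta, an attractant of monocytes and lymphocytes, had ratios of 1.30 at 1 h, 1.03 at 2 h, -0.78 at 4 h and -0.52 at 6 h. Both early values were above 0 and both late values below it, where 0 is the typical gene of that brightness. The spike-in controls lay at -0.63, -0.471, -0.594 and -0.658 on this scale at 1, 2, 4 and 6 h. The sign of a ratio, here and below, therefore depends on the zero that is taken. The late mean was lower by 1.82 ± 0.16 log2 (SE, 2 arrays a side), or 3.53-fold, with an adjusted p of 0.00438 in limma. Its probe lies at chr11:83478052-83478111 (mm9, the build named in the file headers). Ddit3, which encodes the stress-induced transcription factor CHOP and lies on chromosome 10, had ratios of 0.63, 0.58, -0.46 and -0.65 at 1, 2, 4 and 6 h. Each later value was lower than the one before, and the groups did not overlap. The late mean was lower by 1.16 ± 0.14 log2 (2.23-fold, limma adjusted p = 0.026).

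Mllt11, which encodes a small protein first described as a fusion partner of the leukaemia gene MLL, had ratios of -0.63 and -0.66 at 1 and 2 h and of 0.59 and 0.95 at 4 and 6 h. Both early values were below 0 and both late values above it. The late mean was higher by 1.41 ± 0.16 log2 (2.66-fold, limma adjusted p = 0.0216), measured by a probe at chr3:95023232-95023291 (mm9). Phf13, which encodes a PHD finger protein that reads histone H3 methylation, stood at -0.71, -0.58, 0.53 and 0.45, and the late mean was higher by 1.13 ± 0.14 log2 (2.19-fold, limma adjusted p = 0.026). That value comes from the brighter of 2 probes. The other probe, with a mean brightness of 6.65 log2 against 10.71, read -0.29, -0.27, -0.02 and -0.11, a difference of 0.22, and over the mean of both probes the change was 0.67 and did not pass (adjusted p = 0.119).

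**Figure D1:**
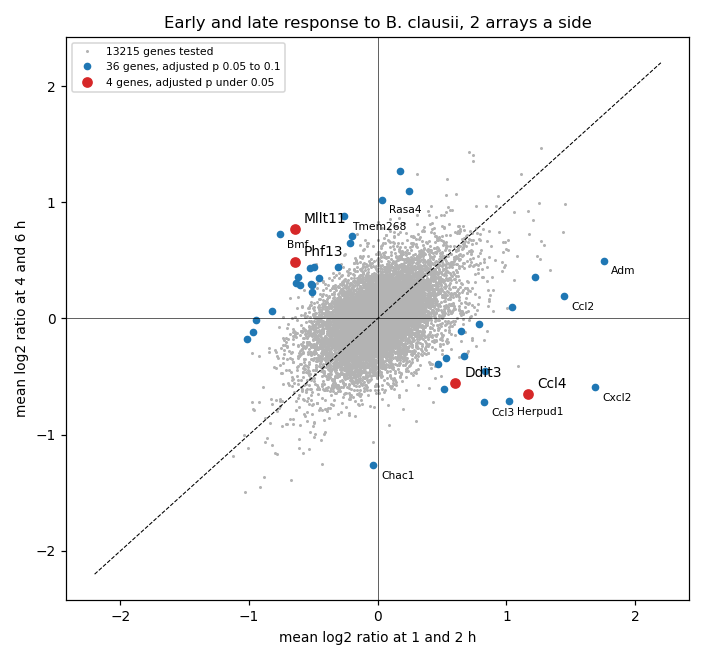
Each point is a gene, with the mean log2 ratio of treated over untreated cells at 1 and 2 h on the horizontal axis and at 4 and 6 h on the vertical axis (2 arrays a side), and the dashed line marks equal values. The 4 genes that passed at an adjusted p under 0.05 (red) and the 36 between 0.05 and 0.1 (blue) lie away from the line, Ccl4 and Ddit3 to the lower right and Mllt11 and Phf13 to the upper left, whereas most genes sit near 0 on both axes.

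Sign changes of this size were rare. Of all genes tested, 6 had a mean above 0.5 early and below -0.5 late (Ccl4, Ddit3, Cxcl2, Ccl3, Herpud1 and Maff), and 2 went the other way (Mllt11 and Bmf). Means past 0.5 on the early side only were found for 272 higher and 219 lower genes, and past 0.5 on the late side only for 249 and 245. Another 139 genes were above 0.5 and 90 below -0.5 in both phases, and 11993 (90.8%) stayed within 0.5 in both. By the rule of at least 2-fold between the phase means, 5 genes (0.0378%) were higher late, namely Mllt11, Phf13, Tmem268, Bmf and, named here after its value was seen, Esyt3, and 17 (0.129%) were lower. On single arrays, which have no replicate, 67 genes (0.507%) were at least 2-fold higher and 16 (0.121%) lower in treated cells at 1 h, 20 (0.151%) and 7 (0.053%) at 2 h, 16 (0.121%) and 25 (0.189%) at 4 h, and 42 (0.318%) and 47 (0.356%) at 6 h. Across the 13215 genes, which are not independent replicates and share probes and dyes, the ratios of neighbouring times correlated with r of 0.683 (1 and 2 h), 0.706 (2 and 4 h) and 0.608 (4 and 6 h), and those of 1 and 6 h with 0.142.

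Both late ratios lay above both early ratios for 3298 genes (25%) and below them for 2952 (22.3%), and these shares are the background for every gene group below. The balance depends on the scaling: the counts were 6680 above and 641 below with median centring, and 2070 above and 3280 below with centring on the spike-in controls. A straight line fitted over the 4 times, which uses the same arrays and is no independent evidence, passed for 1073 genes (8.12%) upwards and 1134 (8.58%) downwards (limma, adjusted p under 0.05). In the single channels 0 genes passed late against early in either. At an unadjusted p under 0.05 in limma, 615 genes (4.65%) were higher and 575 (4.35%) lower late in the treated channel, against 317 (2.4%) and 112 (0.848%) in the untreated channel.

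By the naming rule, 10 more genes were named in each direction by the smallest p. They did not pass in limma (adjusted p of 0.0539 to 0.0959) and are given as values. Of those with lower late values, 3 are chemokine genes. Cxcl2, which encodes a neutrophil attractant, stood at 2.35 and 1.03 early and at -0.79 and -0.39 late, and its early and late means lay 2.28 ± 0.33 log2 apart (4.85-fold, adjusted p = 0.0539). That was the largest difference of all genes tested in this setting, with a spread to match, since 1 h and 2 h differed by more than 1 log2 unit. Ccl3, which encodes MIP-1 alpha, the neighbour of Ccl4 in its chromosomal cluster, stood at 1.21, 0.44, -0.55 and -0.89 (difference -1.54 ± 0.23, adjusted p = 0.0539). Ccl2, which encodes the monocyte attractant MCP-1, stood at 1.48, 1.42, 0.49 and -0.11 (difference -1.26 ± 0.19, adjusted p = 0.0539), with its 4 h value still above 0.

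Herpud1, Chac1 and Adm belong to stress responses. Herpud1, whose product helps ER-associated degradation, stood at 1.13, 0.91, -0.24 and -1.19 (difference -1.74 ± 0.25, adjusted p = 0.0539), the 6 h value being the lowest by far. Chac1, which encodes a glutathione-degrading enzyme and is a target of ATF4 and CHOP, stood at -0.25 and 0.18 early and at -1.11 and -1.41 late (difference -1.23 ± 0.18, adjusted p = 0.0539). Chac1 thus differed from Ddit3 in its early values, which lay on either side of 0. Adm, which encodes the vasodilator peptide adrenomedullin and is induced in hypoxia, stood at 2.09 and 1.42 early and at 0.52 and 0.47 late (difference -1.26 ± 0.20, adjusted p = 0.0694), above 0 at every time.

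The other named genes with lower late values are induced by growth factor or stress signals in many cells, or are less well known. Maff, which encodes a small MAF transcription factor, stood at 0.79, 0.23, -0.72 and -0.50 (difference -1.12 ± 0.19). Phlda1 stood at 0.85, 0.71, -0.08 and -0.01 (difference -0.83 ± 0.14), and Errfi1, which encodes the EGF receptor inhibitor MIG6, at 0.71, 0.58, -0.12 and -0.08 (difference -0.75 ± 0.14). Fam217b stood at 0.69, 0.37, -0.28 and -0.39 (difference -0.87 ± 0.15). Phlda1 and Errfi1 were back near 0, the typical gene, in the late arrays, while Maff and Fam217b were below it.

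Among the named genes with higher late values, Bmf, which encodes a BH3-only protein that promotes apoptosis, stood at -1.07, -0.45, 0.51 and 0.94 (difference 1.49 ± 0.21, adjusted p = 0.0539). Its other probe, which was dimmer, differed by 0.15. Tmem268, which encodes a transmembrane protein, stood at -0.40, -0.13, 0.76 and 1.01 (difference 1.14 ± 0.16, adjusted p = 0.0539), and its other 2 probes differed by 1.07 and 0.71. Rasa4, which encodes a calcium-dependent Ras GTPase-activating protein, stood at 0.19, -0.13, 0.93 and 1.12 (difference 0.99 ± 0.16, adjusted p = 0.0679). Tmem268 and Rasa4 were the only ones of the 12 with late means past 0.5 and early means within 0.5 of 0.

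Of the others, Enc1, Zbed5 and Cenpl had early values away from 0 and late values near it. Slc25a25, Armc7, Bbs4 and Rab40c were below 0 at both early times and above it at both late times. Enc1, which encodes an actin-binding protein, stood at -0.92, -0.98, 0.12 and -0.15 (difference 0.93 ± 0.15), and Zbed5 at -0.95, -0.70, 0.00 and 0.12 (difference 0.89 ± 0.15). Cenpl, which encodes a kinetochore protein, stood at -1.11, -0.92, -0.20 and -0.15 (difference 0.84 ± 0.14). Slc25a25, which encodes a mitochondrial ATP-magnesium and phosphate carrier, stood at -0.62, -0.59, 0.32 and 0.24 (difference 0.89 ± 0.13), and its other probe differed by 0.55. Armc7, Bbs4 and Rab40c had differences of 0.94, 0.95 and 0.97, and the dimmer probes of Bbs4 and Rab40c differed by 0.23 and 0.10. In all, 7 of the 12 had a mean below -0.5 early and within 0.5 late, and 2 went from below -0.5 to above 0.5. Another 2 were above 0.5 late only, and Armc7 stayed within 0.5 in both phases.

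**Figure D2:**
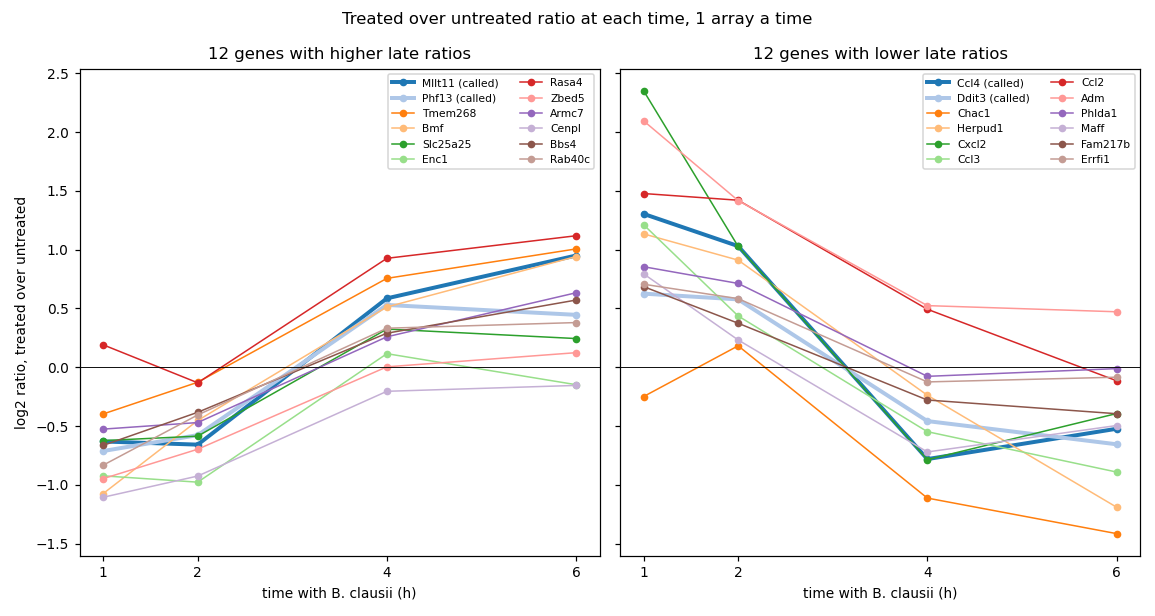
Log2 ratios of treated over untreated cells against the time with B. clausii in hours for the 12 named genes with higher late ratios (left) and the 12 with lower late ratios (right), 1 array a time, with thick lines for the 4 genes that passed. Most lines cross or reach 0 between 2 and 4 h, Cxcl2 and Adm start above 2 at 1 h, and Herpud1 and Chac1 end below -1 at 6 h.

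A ratio can change because either channel changes, so the channels were fitted apart, on log2 intensities that compare different arrays and are less precise. For 23 of the 24 named genes the treated channel differed more between the phases than the untreated one. Ccl4 was at 13.52, 13.12, 11.19 and 11.76 log2 intensity in treated cells at 1, 2, 4 and 6 h and at 12.21, 12.09, 11.97 and 12.28 in untreated cells. The treated signal was lower late by 1.85 ± 0.24 log2 and the untreated signal by 0.03 ± 0.13. Cxcl2 went from 10.44 and 9.20 to 7.49 and 7.63 in treated cells, whereas untreated cells stayed between 8.02 and 8.27. Herpud1 was at 13.35, 13.17, 12.09 and 10.81 in treated cells, and its untreated signal differed by -0.07 ± 0.13 between the phases.

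In the other 4 genes the untreated channel differed by more than 0.2 log2 as well. Ccl3 was at 10.72, 11.28, 11.84 and 11.83 in untreated cells and at 11.93, 11.72, 11.29 and 10.94 in treated cells, so its late untreated signal was higher by 0.84 ± 0.20 and its late treated signal lower by 0.71 ± 0.18. Untreated Bmf was at 10.04, 9.76 and 9.64 at 1, 2 and 4 h and at 8.81 at 6 h, a late mean that was 0.68 ± 0.30 lower. Untreated Mllt11 was lower at 6 h too (9.95, against 10.67 to 10.80 at the other times), as was untreated Cenpl (9.77, against 10.27 to 10.42). None of these single-channel differences passed in limma over all genes (adjusted p of 0.530 in the treated and 0.774 in the untreated channel for Ccl3, Bmf, Mllt11 and Cenpl).

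**Figure D3:**
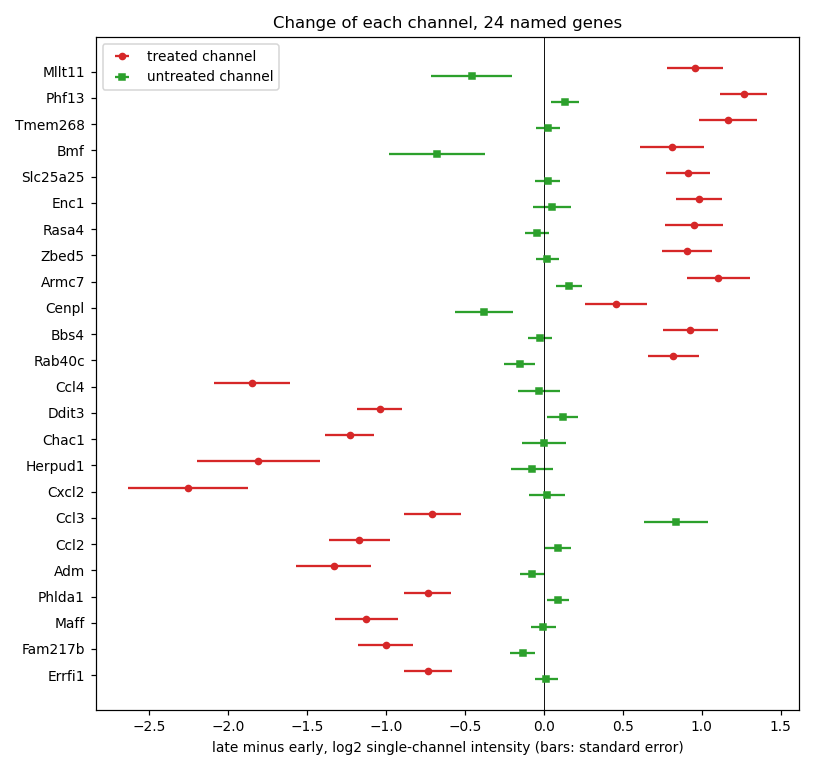
Late minus early difference in log2 intensity of the treated channel (red circles) and of the untreated channel (green squares) for the 24 named genes, with standard errors of the limma fit (2 arrays a side). The untreated channel lies within 0.2 of 0 for 20 of the 24 genes, and Ccl3, Bmf, Mllt11 and Cenpl are the exceptions.

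Promoter letters are shown for 4 of the genes with lower late values whose window held a searched motif outside the very common ones, as a description of these windows. The sequences are those of RefSeq on GRCm38.p6, 250 bases before the gene's start on the plus strand, with the matches in capitals. In Cxcl2 (chr5:90903649-90903898) they mark the kappa B letters, GGGA, any base and TTTCC, in Ddit3 (chr10:127290543-127290792) the AP-1 letters TGACTCA, and in Chac1 (chr2:119350992-119351241) the amino acid response letters TGATGCAA on the minus strand. In Herpud1 (chr8:94386179-94386428) they mark the same amino acid response letters and, nearer the start, the hypoxia letters ACGTG on the minus strand.
Cxcl2: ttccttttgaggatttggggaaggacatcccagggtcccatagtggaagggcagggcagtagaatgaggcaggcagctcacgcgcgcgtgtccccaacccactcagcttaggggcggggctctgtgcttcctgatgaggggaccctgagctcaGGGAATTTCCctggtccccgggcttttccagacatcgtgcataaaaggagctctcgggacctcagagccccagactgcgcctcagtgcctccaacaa
Ddit3: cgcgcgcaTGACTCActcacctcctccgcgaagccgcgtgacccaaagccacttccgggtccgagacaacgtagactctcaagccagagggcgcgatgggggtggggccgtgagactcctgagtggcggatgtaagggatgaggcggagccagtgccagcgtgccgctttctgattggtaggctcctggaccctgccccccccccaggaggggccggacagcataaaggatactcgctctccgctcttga
Chac1: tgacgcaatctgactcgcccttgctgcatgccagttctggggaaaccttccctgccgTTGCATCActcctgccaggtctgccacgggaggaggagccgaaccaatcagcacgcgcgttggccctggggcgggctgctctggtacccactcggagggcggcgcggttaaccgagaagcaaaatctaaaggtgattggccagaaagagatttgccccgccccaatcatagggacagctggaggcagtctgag
Herpud1: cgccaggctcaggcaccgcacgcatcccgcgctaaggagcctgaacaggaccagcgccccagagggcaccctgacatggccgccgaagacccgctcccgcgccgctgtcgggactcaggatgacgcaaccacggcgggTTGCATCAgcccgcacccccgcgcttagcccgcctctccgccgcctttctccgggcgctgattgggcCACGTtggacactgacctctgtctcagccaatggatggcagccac

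The searches took both strands of windows from 250 bases before to 50 after the start, which were held for 9480 of the 13215 genes tested and for 9 of the 12 named genes with lower late values. Kappa B letters were in 1 of these 9 (Cxcl2) and in 0.359% of all 9480 windows. Amino acid response letters (TGATGCAA or TGATGAAA) were in 2 of the 9 (Chac1 and Herpud1), in 1 of the 11 windows of the named genes with higher late values (Tmem268) and in 1.2% of all. AP-1 letters were in 1 of the 9 (Ddit3) and in 3.49% of all, and hypoxia letters in 2 of the 9 (Ddit3 and Herpud1), in 2 of the 11 (Rab40c and Zbed5) and in 25.7% of all. The cyclic AMP response letters TGACGTCA, the CArG letters (CCATA and TTAGG in a row), the E-box letters CACGTG, which contain the hypoxia letters, and the interferon letters (GAAA, any pair of bases and GAAA) were in none of these 20 windows and in 3.29%, 0.0316%, 10.2% and 2.85% of all. No test was made of these shares. The windows of Ccl4, Ccl2 and Phlda1 were not analysed here.

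The gene lists show which known groups the named genes belong to. In the inflammatory cytokine and chemokine list 12 of 18 measured genes (66.7%) had both late ratios below both early ratios and 2 had them above, beside 22.3% and 25% of all genes. Ccl4 fell, and the other 17 did not pass. The median ratio of the list was 0.35, 0.30, 0.12 and -0.08 at 1, 2, 4 and 6 h, and its median late minus early difference was -0.13, which becomes 0.02 with median centring, where the median of all genes moves from 0.01 to 0.20. Ccl7, another monocyte attractant, stood at 1.17, 0.92, 0.31 and -0.12. Tnf, which encodes the cytokine TNF, did not follow and stood at 0.65, -0.26, 0.56 and 0.74, and lymphotoxin beta (Ltb) stayed between 0.88 and 1.13 at all times. The NF-kappa B feedback list had 6 of 18 below and 2 above, with the inhibitor gene Nfkbia at 0.56, 0.15, -0.18 and -0.11 and Nfkbid, which encodes the atypical inhibitor I kappa B-NS, at -0.52, -0.18, 0.27 and 0.52.

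Of 26 immediate early and AP-1 genes 14 (53.8%) lay below and 2 above, none passed, and the median difference was -0.28 (0.06 with median centring). Klf2, which encodes a transcription factor that restrains macrophage activation, stood at 1.41, 0.77, -1.03 and 0.21, so that 4 h and 6 h disagreed (difference -1.50 ± 0.34, limma adjusted p = 0.157). Over the mean of its 2 probes the difference was -0.71, and the median of the list was -0.18 when every gene was taken over its probes. Egr2 stood at 0.72, 0.48, -0.07 and 0.22, and Ier2 at 0.78, 0.42, -0.14 and 0.11. Fos had the opposite pattern with -0.46, -0.59, 0.14 and 0.31 (difference 0.75 ± 0.14, adjusted p = 0.104). Of 12 MAP kinase phosphatase and Sprouty genes 5 were below and 1 above. Dusp4, which encodes a nuclear MAP kinase phosphatase, stood at 0.36, 0.23, -0.36 and -1.40, and Dusp1 at 0.59, 0.55, -0.03 and 0.12. The regulators Trib1 (1.24, 0.42, -0.61 and -0.30) and Irf8 (0.68, 0.61, 0.02 and -0.41), of the list of macrophage identity factors, also had late values below the early ones, although that list as a whole had 3 of 13 below and 3 above.

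The unfolded protein response and ER chaperone list had 14 of 23 genes (60.9%) below and 0 above, and none passed. Its median ratio was 0.47, 0.31, 0.23 and -0.06 at 1, 2, 4 and 6 h. Its median difference of -0.37 was negative in all 19 alternatives (-0.01 with median centring, against 0.20 for all genes). Those that changed only the spread or the cutoff could not move it. The chaperone BiP (Hspa5) stood at 1.04, 0.90, 0.73 and 0.09, and the disulphide isomerase gene Pdia6 at 1.04, 0.89, 0.72 and 0.25. At 4 h both were close to their 2 h values, and the larger step lay between 4 and 6 h. Edem1, which acts in ER-associated degradation, stood at 0.70, 0.44, 0.15 and -0.42, and the BiP co-chaperone gene Dnajb9 at 0.03, 0.03, -0.42 and -0.97. Over the mean of its 3 probes Edem1 differed by -0.39, against -0.70 for the brightest. Xbp1 (0.09 to 0.24) and Ern1 (0.03 to 0.27), which encode the transcription factor and the sensor of a main branch of this response, had early and late ratios that overlapped. In the straight-line fit 14 of the 23 passed downwards and 0 upwards, beside 8.58% and 8.12% of all genes. The ATF4 and amino acid response list, which holds Ddit3 and Chac1, had 7 of 18 below and 2 above, and Atf4 itself stood at 0.05, -0.22, -0.19 and -0.98.

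Hypoxia genes had 12 of 21 (57.1%) below and 1 above, with a median difference of -0.21 (0.01 with median centring). The glucose transporter gene Slc2a1 stood at 1.30, 1.14, 0.54 and 0.17 (difference -0.86 ± 0.16, limma adjusted p = 0.0959), the growth factor gene Vegfa at 0.66, 0.51, 0.03 and -0.07, and the collagen prolyl hydroxylase gene P4ha1 at 0.75, 0.23, -0.09 and -0.91. Ddit4, which encodes an inhibitor of mTORC1, stood at 1.26, 1.33 and 1.21 until 4 h and at 0.05 at 6 h. Pfkfb3, which makes the main activator of glycolysis, was the gene above, at 0.53, 0.69, 0.74 and 1.40. Hif1a, the regulator for which the group is known, was below 0 at all times (-0.59, -0.28, -0.48 and -0.19), and its early and late ratios overlapped. Of 15 glycolysis genes 6 were below and 2 above. In Ldha, at 0.92, 0.55, 0.41 and 0.11, the untreated channel was higher late by 0.63 and the treated channel by 0.15. Over the mean of both Ldha probes the difference was -0.09, against -0.48 for the brighter one. For Vegfa, P4ha1 and Pfkfb3 the differences over all their probes were -0.25, -0.62 and 0.16, against -0.61, -0.99 and 0.46 for the brightest.

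Urokinase and matrix protease genes had 7 of 9 below and 0 above, with a median difference of -0.37, which was -0.06 with median centring and -0.08 with no filter on dim probes, where all 19 listed genes enter. Urokinase (Plau) stood at 1.62, 1.26, 0.84 and 0.65 and its receptor gene Plaur at 0.63, 0.36, -0.20 and -0.08. Adamts1, which encodes a secreted protease of the matrix, stood at 1.26, 0.53, 0.23 and -0.11. Over the mean of its 2 probes Plau differed by -0.46, against -0.70 for the brighter one. Plau was still above 0 at 6 h, while Plaur and Adamts1 were at or below it.

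The cholesterol synthesis list had 12 of 23 (52.2%) below and 3 above, with a median difference of -0.27 (0.04 with median centring). Its median ratio was 0.15, 0.10, 0.00 and -0.31, so that the 6 h array carries most of the difference. Msmo1, which encodes a sterol methyl oxidase, stood at 0.61, 0.25, -0.32 and -1.11, and Idi1, which encodes an isomerase of the mevalonate pathway, at 0.45, 0.19, -0.07 and -1.08 (difference -0.89, or -0.44 over the mean of its 2 probes). Insig1 and Srebf2, which encode regulators of this pathway, stayed between -0.05 and 0.29 at all times. Of the list 10 genes passed downwards and 0 upwards in the straight-line fit, which uses the same arrays, beside 8.58% and 8.12% of all genes.

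**Figure D4:**
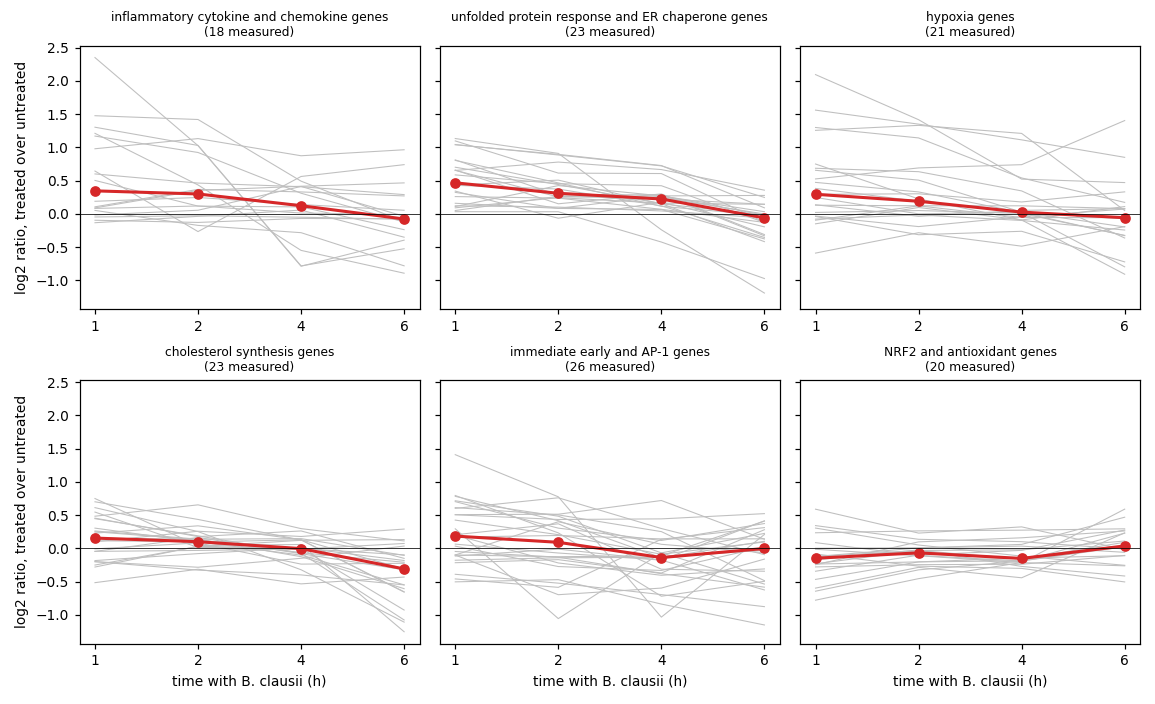
Log2 ratios of treated over untreated cells against time in hours for the measured members of 6 gene lists (grey lines, 1 gene each) with the list median (red). The medians of the cytokine and chemokine, ER chaperone, hypoxia and cholesterol synthesis lists lie between 0.15 and 0.47 at 1 h and between -0.31 and -0.06 at 6 h. That of the NRF2 list is -0.15, -0.07, -0.15 and 0.04 at 1, 2, 4 and 6 h, above 0 on the 6 h array alone.

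On the other side, the lists with the larger shares above were those of NRF2 and antioxidant genes (10 of 20 above, 5 below), arginine and polyamine genes (6 of 12 above, 3 below) and circadian clock genes (5 of 12 above, 2 below), beside 25% and 22.3% of all genes, and none of their genes passed. Gclc, which encodes the catalytic subunit of the first enzyme of glutathione synthesis, stood at -0.78, -0.46, -0.21 and 0.59, and the thioredoxin reductase gene Txnrd1 at -0.64, -0.32, -0.19 and 0.23. Gclm, the gene of the partner subunit, went the other way with -0.17, -0.02, -0.27 and -0.42. Ass1, an enzyme gene of arginine synthesis, stood at -0.48, -0.19, -0.15 and 0.49, and Asl, of the next step, at 0.28, 0.06, -0.03 and -0.44. In the clock list the activator-driven gene Dbp stood at -0.05, 0.11, 0.83 and 0.43 and its counterpart Nfil3, which encodes a repressor, at 0.57, 0.78, -0.07 and -0.59 (difference -0.999 ± 0.18, adjusted p = 0.0959). Over the mean of their probes Ass1 differed by 0.26 and Gclm by -0.04, against 0.51 and -0.25 for the brighter ones, and the median of the arginine list was 0.00, against 0.12. The median difference of the NRF2 list was 0.09, and 0.02 to 0.44 over the main setting and the alternatives. That of the clock list was 0.11, and -0.06 to 0.30, so its sign was not stable.

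Apoptosis genes had 6 of 19 below and 3 above. Bbc3, which encodes the BH3-only protein PUMA, stood at 0.76, 0.71, 0.40 and -0.77 (difference -0.92 ± 0.29, limma adjusted p = 0.254), the reverse of the direction of Bmf, and only its 6 h value was below 0. Without the 6 h array its difference was -0.34. Cpt1a, which encodes the carnitine transferase that admits fatty acids to mitochondria, stood at -0.33, -0.08, 0.58 and 0.84 (difference 0.91 ± 0.15, limma adjusted p = 0.0707), and the TGF-beta receptor gene Tgfbr1 at -0.03, 0.23, 0.87 and 0.85 (difference 0.76 ± 0.14, adjusted p = 0.105). Amino acid transporter genes were divided, with 5 of 18 above and 4 below. Slc43a2 stood at 0.62, 0.85, 1.24 and 1.58 and Slc7a1, the arginine carrier gene, at 0.58, -0.14, -0.31 and -0.69, and over the mean of their 2 probes the differences were 0.44 and -0.36, against 0.67 and -0.72 for the brighter ones. Linker histone H1f0 (0.51, 0.28, 0.22 and 1.56) and the proteasome gene Psmc2 (0.26, 0.09, 0.09 and 1.41) were high on the 6 h array alone, and without it their differences were -0.17 and -0.09.

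Several large housekeeping groups lay near the background, but not all. DNA replication genes had 12 of 36 above and 6 below. RNA splicing genes had 5 of 41 above and 12 below, and lysosome genes 3 of 32 above and 8 below. The following lists were nearer to it. Of 45 large-subunit ribosomal protein genes 12 were above and 9 below, of 31 small-subunit genes 10 and 8, of 53 oxidative phosphorylation genes 14 and 13, and of 31 mitosis genes 7 and 6. In the main setting the ribosomal lists had a steady ratio, with a median between 0.32 and 0.36 (large subunit) and between 0.22 and 0.25 (small subunit) at every time. This depends on the scaling. Over the main setting and the alternatives their median differences ranged from -0.09 to 0.38 (large subunit) and from -0.01 to 0.41 (small subunit). That of oxidative phosphorylation genes ranged from -0.02 to 0.36 and that of all genes from -0.14 to 0.20. Of 17 interferon response genes 6 were below and 3 above, and none passed, with Oas2 at 0.39, 0.40, 0.22 and -0.18. Antigen presentation genes had 4 of 14 above and 0 below, with Cd40 at 0.05, 0.22, 0.42 and 0.44, and phagocytic and pattern receptor genes 5 of 26 above and 10 below, with the integrin gene Itga5 at 0.33, 0.51, 0.82 and 1.11 and the lectin receptor gene Clec4e at 0.35, 0.17, -0.17 and -0.42.

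**Figure D5:**
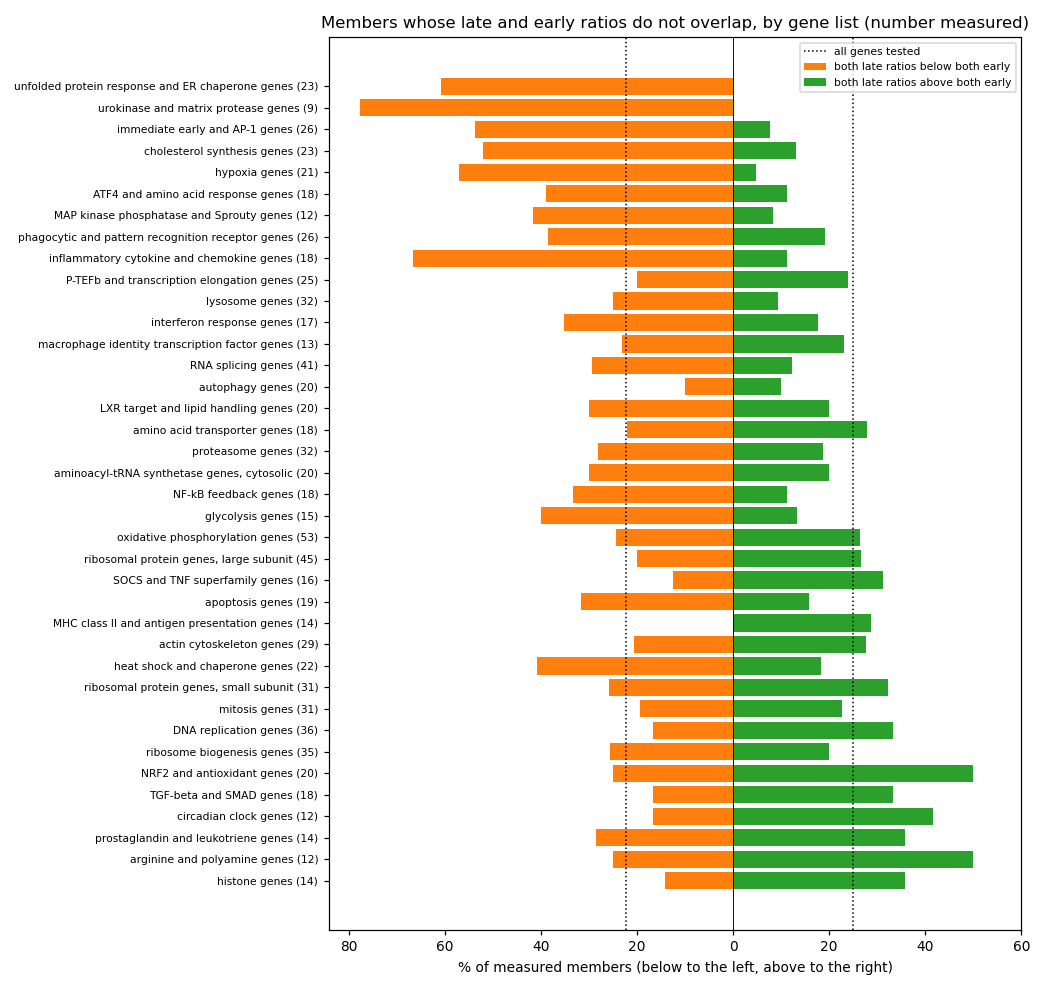
For each of the 38 gene lists, with the number of measured members in brackets, the percentage of members with both late ratios below both early ratios (orange, to the left) and above them (green, to the right), ordered by the list's median difference. The dotted lines mark all genes tested (22.3% below and 25% above), which 26 lists pass to the left and 14 to the right. The longest bars to the left are those of the protease, cytokine, ER chaperone, hypoxia, immediate early and cholesterol lists, and to the right those of the NRF2 and the arginine lists.

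Detection flags gave a last view of genes near the background. The treated channel was well above background on both late arrays and neither early array for 66 of the 13215 genes tested. On both early arrays and neither late array it was so for 50. For the untreated channel these numbers were 32 and 78 of the same 13215 genes. The 1 h and 6 h arrays had the lower detection in both channels, and what part that has in these numbers was not tested.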

How the data were processed

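The 4 B. clausii arrays are two-colour Agilent mouse arrays. The deposited intensity values give each spot's mean foreground and median local background in both channels, per the file headers (Feature Extraction 10.7.3.1, with 10.5.1.1 in the submitters' processing notes). The deposited log10 ratios are those of the software's processed intensities, and the series matrix holds the same ratios rounded. With limma 3.58.1 in R 4.3.3, flagged local backgrounds above 3 times the array median were replaced by that median, and intensities were corrected by normexp (offset 50). The spots with a replaced background were then left out of the loess fit and of the probe averages. The alternative with the local background as deposited keeps these spots unless they are flagged otherwise. Loess was applied to the log2 ratios of each array and, for single channels, Aquantile between arrays. Control spots and outlier flags were left out. The 19068 probes kept had a signal well above background, in either channel, on 2 or more of the 4 arrays, with the brightest probe standing for a gene. Of 13215 genes 11795 have a symbol of the RefSeq table (GRCm38.p6), and 4409 have more than 1 kept probe.

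Late against early was fitted with lmFit and eBayes on 2 residual degrees of freedom (prior 8.19, prior SD 0.148) and adjusted over all genes. Values after ± are standard errors of that fit. The number of arrays limits the precision. The p-values set each difference against a spread between pools at neighbouring times, drawn more from the prior than from the gene itself. Named genes are the 12 in each direction that passed or, beyond those, have the smallest p, with signal in both channels on all 4 arrays and phases that do not overlap, plus up to 4 members with the largest differences of each of 38 lists. The text describes a selection of these members, and that selection, further list members and Esyt3 were chosen after their values were seen. The rest are not reported here. The arrays, lists and rules were chosen with earlier results of these data known. On simulated data of 13215 genes with 200 changed (5 runs), the late minus early fit recovered 8.8% of changes of 0.5 log2, 90.4% of 1 and 100% of 1.5, and 3.86% of its calls were false. The simulated noise was independent and normal, with the fitted prior spread. It held no changes within a phase and no array effects, so these rates need not hold for the real arrays. There, 5 genes were higher and 17 lower late by at least 2-fold, and 4 passed. The alternatives are given under the processing below.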

Additional observations from a re-analysis of the deposited data

How the results depend on the processing

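No paired analysis was possible because the replicate numbers follow the accession order of different time points and each time has 1 array. The 4 genes called became 0 with the processed signals, with the series matrix values (1548 at an unadjusted p under 0.05 in limma) and with the local background as deposited, 2 with a normexp offset of 0 and 2 with median centring (1 in each direction both times), and 1 (lower) with no filter on dim probes. They became 50 with scaling between arrays and 50 with detection in both channels on all 4 arrays (28 higher and 22 lower both times), 61 with centring on the spike-in controls (9 and 52), 31 with the spread of all 8 arrays (21 and 10), 40 at an adjusted p under 0.1 (23 and 17) and 2207 with a straight line over time (1073 and 1134). They were 0 to 1405 without single arrays. With no background correction, the mean over probes and a trended robust prior they were 4, 3 and 5. The 3298 genes with late ratios above the early ones became 6680 with median centring, 2070 with centring on the spike-in controls and 5598 with no filter, and the 2952 below became 641 with median centring and 5608 with no filter. Without single arrays, which makes the criterion easier to meet, they were 4491 to 5558 and 4263 to 5153. Single-channel limma calls stayed at 0 with quantile normalization (1214 treated and 430 untreated at an unadjusted p under 0.05) and with an offset of 0 (1055 and 401), and were 0 to 625 (treated) and 0 to 699 (untreated) without single arrays, both highest without the 4 h array. Median centring moved the median difference of all genes to 0.20 and centring on the spike-in controls to -0.14. All 24 named genes kept their direction in the 19 alternatives. For them, alternatives without single arrays, or with only another spread or cutoff, could not reverse it. Of 53 further genes named, 45 kept their direction. H1f0 and Psmc2 changed sign without the 6 h array (-0.173 to 1.16 and -0.0867 to 1.23 without single arrays). Ltb was at 0.257 with median centring. The other 5 have differences under 0.1 and no stable sign: Hif1a (-0.0274 with the processed signals, -0.0272 with the series matrix values, -0.055 to 0.252 without single arrays), Srebf2 (-0.193, -0.194 and -0.023 to 0.135 likewise), Xbp1 (0.0659 with the local background as deposited, 0.316 with median centring, 0.00175 with the straight line, -0.0907 to 0.0615 without single arrays), Ern1 (-0.17 with spike-in centring, -0.0402 with the straight line, -0.0882 to 0.148 without single arrays) and Insig1 (-0.113 with spike-in centring, -0.0889 over the mean of its probes). The causes were not tested. In the simulated data, at this number of arrays, changes of 0.5 log2 were mostly missed.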
